A study of Mus musculus with 8 samples.

Results

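The genes described here are 32 genes of the unfolded protein response (UPR) and of protein folding and degradation in the endoplasmic reticulum (ER), taken by gene symbol from a count table of 52636 genes. They fall into 4 arms: 4 sensors and their transcription factors, 16 chaperones, folding enzymes and translocon genes, 6 genes of ER-associated degradation, and 6 genes of the PERK-ATF4 branch. Of the 32, 31 had enough reads to be tested, among 16045 tested genes. The exception was Chac1. RNA was sequenced from leptin receptor positive (LEPR+) mesenchymal stem cells, the perivascular stroma of mouse bone marrow that feeds blood stem cells. The 4 LTβR-Ig libraries came from C57BL/6 mice given a decoy receptor that captures the ligands of the lymphotoxin β receptor, at 150 µg into a vein each week for 3 weeks. The 4 control libraries came from C57BL/6 mice given the same amount of an IgG1 against hen egg lysozyme (HEL-Ig) on the same schedule. Cells flushed from long bones were digested with collagenase, and living cells that stained for LEPR but not for CD144, CD31, Ter119 or CD45 were taken in a pair of successive sorts. The labels give no age. The design text speaks of 4 pairs without saying what a pair shares or whether each library is its own mouse, so the tests measure only the differences among these libraries, which may be technical.

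The ER folds and glycosylates proteins that a cell secretes or puts on its surface, and stromal cells that make collagen and cytokines carry a large load of them. When unfolded proteins build up, 3 membrane sensors respond: IRE1 (gene Ern1) splices the mRNA of the transcription factor XBP1, ATF6 is cut in the Golgi to free a transcription factor, and PERK (gene Eif2ak3) slows translation while the factor ATF4 is made. XBP1 and ATF6 turn on chaperones and degradation genes, and ATF4 turns on amino acid genes and the stress factor CHOP (gene Ddit3). Counts per gene cannot show the splicing of Xbp1, the cutting of ATF6 or the translation of ATF4.

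Library depth was between 52378101 and 64403177 counts. The sorted cells expressed Lepr at 3907 ± 554 CPM in LTβR-Ig and 4305 ± 45.9 CPM in control libraries (SD, n = 4 each), where CPM is a count scaled to the size of its library. Of 8 markers of these cells, 6 had a log2 fold change below 0 (median -0.09), and 2 of them, Kitl at -0.58 and Pdgfra at -0.29, had an unadjusted edgeR p under 0.05 and groups that did not overlap. Of all tested genes, 49.7% were above 0, 2.93% were lower at that p and 2.53% were lower without overlap. The part of the share of LEPR+ cells in the results was not tested. Ptprc, the gene of CD45, which the gate excludes, was also present, at 39.9 to 57.6 CPM in LTβR-Ig and 21.7 to 61.1 CPM in control libraries. In bulk libraries, fewer cells of a type and less RNA per cell cannot be told apart. Markers of megakaryocytes and of endothelial cells, 10 each, all had a log2 fold change above 0 (medians 0.57 and 0.68), with none at an unadjusted edgeR p under 0.05, and their part in the results was not tested. On the first principal component of all genes, LTβR-Ig replicate 2 had the highest and control replicate 3 the lowest score, and results that rest on these 2 libraries are also given without them.

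No UPR or ER gene passed the test. In the quasi-likelihood test of edgeR, with p adjusted by Benjamini-Hochberg over 16045 genes, 0 of 31 members had an adjusted p under 0.05, against 6 of all genes, a share of 0.0374%. At an unadjusted p under 0.05 there were 5 members, 16.1% of the 31, against 6.32% of all genes. Of these, 3 were higher with LTβR-Ig (Xbp1, Atf4 and Herpud1), where the share of all genes was 3.39%, and 2 were lower (Hyou1 and Asns), against 2.93%. DESeq2 on all genes called 1 member, Atf4 (DESeq2 adjusted p = 0.0334, against 1.94% of all genes called). On the genes that edgeR had tested, DESeq2 called no member, against 1.25% of all genes, with 6 members at an unadjusted p under 0.05. Over all alternatives the adjusted p of Atf4 ran from 0.0334 to 0.956. Without LTβR-Ig replicate 2 and control replicate 3, the members at an unadjusted edgeR p under 0.05 were Hyou1, Xbp1, Manf and Ppp1r15a, and those of Atf4, Herpud1 and Asns were above it, with log2 fold changes of 0.25, 0.31 and -0.34. In this fit, and in DESeq2 on the genes edgeR tested, the share of all genes at an unadjusted p under 0.05 was not counted.

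By arm, all 4 genes of the sensor arm had a log2 fold change (LTβR-Ig over control) above 0. These were Xbp1 at 0.44 and the sensor genes Atf6, Eif2ak3 and Ern1 at 0.25, 0.10 and 0.02. So had 12 of 16 chaperone genes, 5 of 6 degradation genes and 2 of 5 tested PERK-ATF4 genes. The median log2 fold change was 0.18 for the sensor arm with Xbp1, 0.09 for the chaperones, 0.27 for the degradation genes and -0.03 for the PERK-ATF4 branch. Over all tested genes it was 0.00, and 49.7% of genes were above 0. These medians are descriptions and carry no test. The sensor median was 0.08 without control replicate 4, and Ern1, at 0.02, was below 0 in some of the alternatives.

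**Figure D1:**
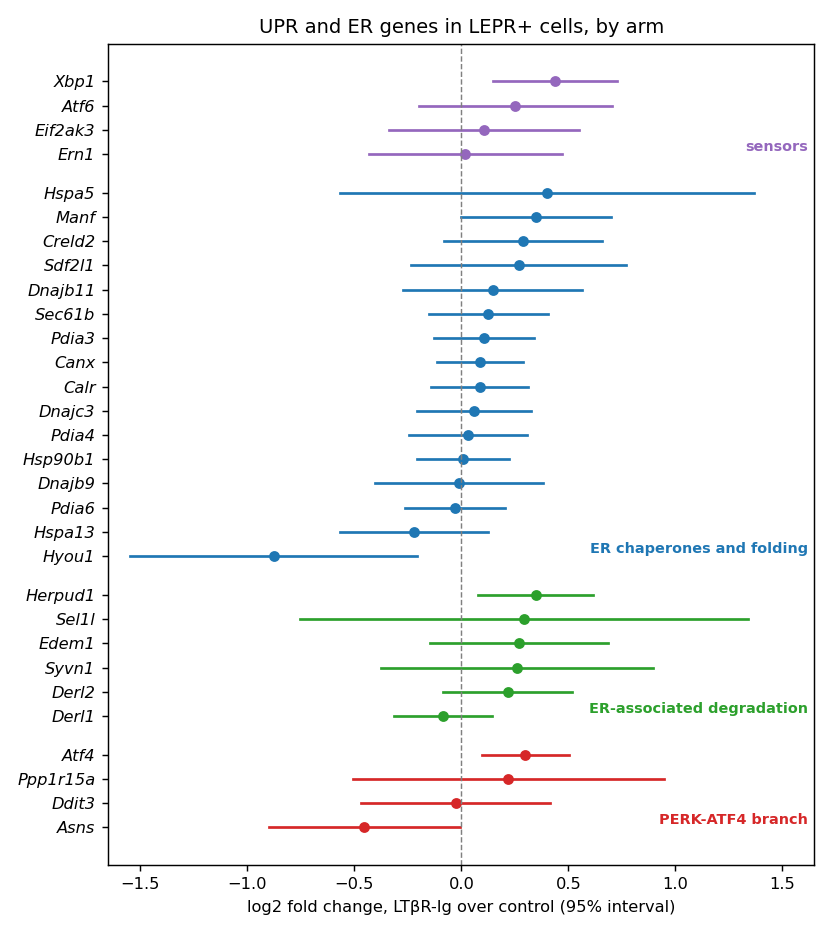
Log2 fold change of each tested UPR and ER gene, LTβR-Ig over control, with its 95% interval from the edgeR fit (x axis), grouped by arm (y axis, colours). Intervals of Xbp1, Atf4 and Herpud1 lie above 0 and those of Hyou1 and Asns below it, all without passing the adjusted test. Trib3 and Chac1 are not drawn because several libraries had no reads.

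In the sensor arm, the largest difference was that of Xbp1, the transcription factor gene downstream of IRE1. Xbp1 had 233, 324, 277 and 297 CPM in LTβR-Ig replicates 1 to 4, against 179, 231, 209 and 215 CPM in control replicates 1 to 4. Every LTβR-Ig library was above every control library, although LTβR-Ig replicate 1 and control replicate 2 nearly touched. The log2 fold change was 0.44 (SE 0.13, 95% interval 0.15 to 0.73, edgeR adjusted p = 0.462), a 1.35-fold difference. Ranges of the groups did not overlap for 3 of the 31 members, against 4.89% of all tested genes. Of these 2 were higher with LTβR-Ig, Xbp1 and Atf4, against 2.36% of all genes. Xbp1 lies on chromosome 11 from 5520659 to 5525893 (mm10).

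The sensor genes themselves were less abundant and their groups overlapped. Atf6 had 69.1, 56.8, 74.5 and 68.5 CPM in LTβR-Ig libraries, against 66.2, 52.5, 69.2 and 37.7 CPM in control libraries. Control replicate 4 was the low one, and without it the log2 fold change was 0.10, against 0.25 with all libraries (95% interval -0.20 to 0.70). Ern1 had 17.5, 13.3, 21.5 and 21.0 CPM with LTβR-Ig and 18.1, 18.1, 18.7 and 17.4 CPM in controls. The controls of Ern1 lay within a narrow band inside the LTβR-Ig range, and the interval of the difference was -0.43 to 0.47 (log2). Eif2ak3 had 33.6, 31.2, 19.6 and 26.5 CPM with LTβR-Ig and 27.1, 24.6, 27.9 and 23.5 CPM in controls, with an interval of -0.34 to 0.55.

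Plasma cells, which secrete antibody and depend on XBP1, are another marrow cell type known for high Xbp1 and chaperone RNA. Of 10 plasma cell markers, 9 were tested, 3 above 0 and 6 below 0 in log2 fold change, and none had an unadjusted p under 0.05. Together they took 0.0332 to 0.137% of counts in LTβR-Ig and 0.0384 to 0.154% in control libraries. Among them, Sdc1 varied little in level, with 233 to 367 CPM with LTβR-Ig and 209 to 297 CPM in controls. Mzb1 varied more, with 4.73 to 43.0 CPM with LTβR-Ig and 4.91 to 49.0 CPM in controls. Jchain, the joining chain of antibodies, had 190, 968, 76.1 and 182 CPM with LTβR-Ig and 304, 1171, 161 and 145 CPM in controls. It was highest in replicate 2 of both groups, where Xbp1 was also highest, and the part of plasma cells in the Xbp1 values was not tested. Fcrl5 was at 0 in 3 LTβR-Ig and 3 control libraries, Prdm1 in 1 library of each group, Tnfrsf17 in 1 library of each group, Irf4 in 1 LTβR-Ig and Eaf2 in 1 control library.

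**Figure D2:**
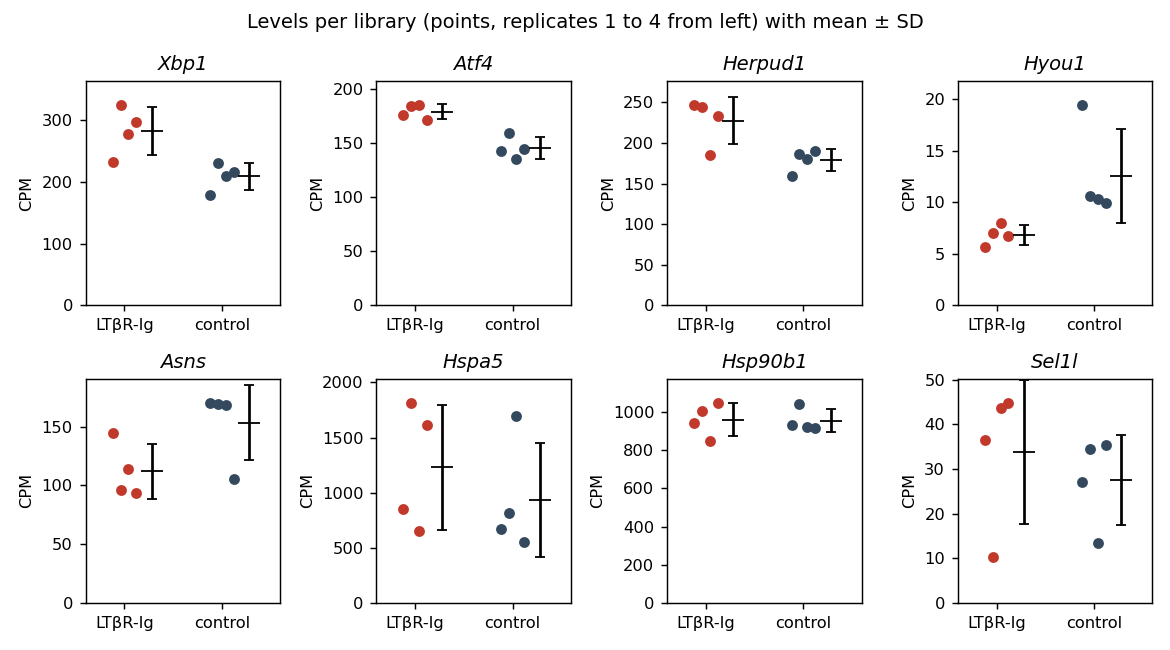
CPM (y axes from 0) of 8 genes in the 4 LTβR-Ig and 4 control libraries, with points for replicates 1 to 4 from left to right and bars for the mean ± SD. Xbp1, Atf4 and Hyou1 separate the groups, Asns and Herpud1 overlap in 1 or more libraries, and Hspa5 and Sel1l vary several-fold inside both groups.

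Many chaperone genes share a DNA element through which ATF6 and XBP1 act, the ER stress response element (ERSE). RefSeq promoter windows (GRCm38.p6, 250 bases before to 50 after a start) were found for 27 of the 32 members; Atf6, Hspa13, Manf, Derl1 and Hyou1 had no entry. The search for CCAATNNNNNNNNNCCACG on both strands found it in 8 of these 27 genes, or 29.6%, against 0.137% of all 27025 genes with a window. Of the 8, 7 were chaperone genes and 1 was Syvn1 of the degradation arm. The variant ERSE-II, searched as ATTGG, any base and CCACG, stood in Dnajb11 and Herpud1, against 0.0444% of all genes. Because this element is known from chaperone genes like these, its larger share among the members was set by their choice and tests nothing. The sites are printed because this element is the textbook binding site of ATF6 and XBP1. Each is written 5′ to 3′ on the strand that reads CCAAT or ATTGG first, with 5 flanking bases a side and the fixed letters of the element in capitals.
Hspa5 (chr2:34772020-34772048, + strand): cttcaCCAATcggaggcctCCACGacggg
Hsp90b1 site farther from the start (chr10:86705633-86705661, - strand): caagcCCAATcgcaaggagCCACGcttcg
Hsp90b1 site nearer the start (chr10:86705528-86705556, + strand): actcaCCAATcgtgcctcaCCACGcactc
Calr (chr8:84847070-84847098, + strand): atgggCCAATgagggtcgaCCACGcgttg
Canx (chr11:50325795-50325823, - strand): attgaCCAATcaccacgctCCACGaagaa
Pdia6 (chr12:17266486-17266514, + strand): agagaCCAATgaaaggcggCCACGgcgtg
Dnajc3 (chr14:118937822-118937850, + strand): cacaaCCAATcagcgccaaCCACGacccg
Creld2 (chr15:88819515-88819543, - strand): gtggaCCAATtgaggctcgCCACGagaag
Syvn1 (chr19:6046527-6046555, + strand): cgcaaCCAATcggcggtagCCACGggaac
Herpud1, ERSE-II (chr8:94386372-94386392, + strand): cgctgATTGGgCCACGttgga
Dnajb11, ERSE-II (chr16:22857847-22857867, + strand): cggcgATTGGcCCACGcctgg
The shorter letters TGACGTG, the core of an XBP1 element, stood in the window of Hspa5 alone among the members (2.22% of all genes), and TGATGNAAT, an element bound by ATF4 and C/EBP factors, in none (1.08% of all genes). The search took only these exact letters in these windows. A gene without a match can still carry a variant of an element, or a site elsewhere. No found sites overlapped. A match is a description of the letters and not of binding.

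The whole window of Hspa5, whose RNA varied most among the abundant members, spans chr2:34771840-34772139 on the + strand and is printed with the ERSE letters in capitals.
Hspa5 promoter: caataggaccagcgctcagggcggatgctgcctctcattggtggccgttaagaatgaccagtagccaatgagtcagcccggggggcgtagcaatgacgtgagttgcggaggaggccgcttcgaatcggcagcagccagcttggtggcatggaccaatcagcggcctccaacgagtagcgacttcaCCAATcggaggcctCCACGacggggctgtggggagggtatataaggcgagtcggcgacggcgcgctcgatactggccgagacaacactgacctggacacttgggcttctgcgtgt

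Hspa5 encodes BiP, the main Hsp70 chaperone of the ER and the usual readout of the UPR. It had 849, 1816, 653 and 1611 CPM in LTβR-Ig replicates 1 to 4, against 667, 814, 1696 and 556 CPM in control replicates 1 to 4. LTβR-Ig replicates 2 and 4 and control replicate 3 were at 1611 CPM or more, and the other 5 libraries at 849 CPM or less, so high and low libraries stood in both groups. The log2 fold change was 0.40 with an interval of -0.56 to 1.37 (SE 0.43, edgeR adjusted p = 1.00). Leaving out LTβR-Ig replicate 2 gave 0.15, leaving out control replicate 3 gave 0.87, and leaving out both gave 0.61.

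Other abundant chaperone genes did not show this spread. Hsp90b1, which encodes the ER Hsp90 GRP94, had 940, 1004, 847 and 1049 CPM with LTβR-Ig, against 934, 1044, 923 and 918 CPM in controls. Its 8 libraries overlapped closely, and the interval of the log2 fold change was -0.21 to 0.22. The SD of log2 CPM within groups was 0.71 for Hspa5, larger than for 95.5% of the 1885 tested genes with a mean of at least 100 CPM. For Hsp90b1 it was 0.11, for the lectin chaperone gene Canx 0.10 and for Calr, the soluble lectin chaperone, 0.13, against a median of 0.20 over those 1885 genes. The less abundant chaperone genes varied more, with 0.34 for Hyou1, 0.33 for Sdf2l1, 0.28 for Dnajb11 and 0.26 for Dnajb9. Hspa13 and Creld2 were both at 0.22.

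The other abundant folding genes lay close together in both groups. Calr averaged 868 ± 95.3 CPM with LTβR-Ig and 818 ± 38.7 CPM in controls (SD, n = 4 each). Canx averaged 891 ± 49.3 CPM with LTβR-Ig and 839 ± 63.4 CPM in controls. The disulfide isomerase genes Pdia3, Pdia4 and Pdia6 had log2 fold changes of 0.11, 0.03 and -0.03. Together with Hsp90b1 and Dnajc3, which encodes the PERK inhibitor p58IPK, these 7 genes had 95% intervals within -0.26 and 0.34, so a 1.5-fold change of any of them was outside its interval.

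Sec61b, a subunit of the channel through which proteins enter the ER, had 138, 178, 156 and 127 CPM with LTβR-Ig, against 140, 125, 145 and 138 CPM in controls. The groups overlapped, with a log2 fold change of 0.13 (interval -0.15 to 0.41) that was 0.03 without LTβR-Ig replicate 2. Dnajb9, which encodes the BiP cochaperone ERdj4 and is a usual target of XBP1, had 83.8, 73.6, 67.9 and 86.8 CPM with LTβR-Ig and 72.6, 58.8, 101 and 81.8 CPM in controls. All 4 LTβR-Ig values of Dnajb9 lay inside the control range, unlike those of Xbp1 itself. The log2 fold change of Dnajb9 was -0.01, with a wide interval of -0.40 to 0.38. It ran from -0.12 to 0.14 when single libraries were left out. Other chaperone genes had log2 fold changes from -0.22 to 0.35 with overlapping groups: Manf and Creld2, secreted ER stress proteins, had 0.35 and 0.29, and Sdf2l1, Dnajb11 and Hspa13 had 0.27, 0.15 and -0.22. Leaving out LTβR-Ig replicate 2 gave 0.23 for Manf, 0.16 for Creld2, 0.09 for Sdf2l1 and -0.13 for Hspa13, and leaving out control replicate 1 gave 0.06 for Dnajb11. Manf had an unadjusted edgeR p of 0.0503 (edgeR adjusted p = 0.789) and was above all controls in 2 of 4 LTβR-Ig libraries.

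Hyou1, which encodes the large Hsp110-type chaperone GRP170, an exchange factor of BiP, went the other way. It had 5.64, 7.04, 7.97 and 6.77 CPM in LTβR-Ig libraries, against 19.5, 10.6, 10.4 and 9.89 CPM in control libraries. The groups did not overlap, and control replicate 1 stood far above the other controls. The log2 fold change was -0.88 (SE 0.30, interval -1.55 to -0.21, edgeR adjusted p = 0.604), and without control replicate 1 it was -0.59 (edgeR adjusted p = 0.851) and above an unadjusted p of 0.05. Ranges that did not overlap and were lower with LTβR-Ig were found for 2.53% of all tested genes. Hyou1 lies on chromosome 9 from 44379490 to 44392369 (mm10).

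Of the degradation genes, Herpud1 had the smallest p. It encodes HERP, a membrane protein that gathers the ubiquitin ligase complex of the ER. Herpud1 had 247, 245, 185 and 233 CPM in LTβR-Ig libraries, against 159, 186, 180 and 190 CPM in control libraries. LTβR-Ig replicate 3 lay among the controls and the other 3 above them all. The log2 fold change was 0.35 (SE 0.12, interval 0.08 to 0.61, edgeR adjusted p = 0.614), between 0.30 and 0.44 when single libraries were left out. Herpud1 overlaps Gm15890 on the opposite strand, and reads of that overlap cannot be told apart.

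Sel1l encodes the adaptor and Syvn1 the ligase HRD1 of the same complex. Sel1l had 36.6, 10.3, 43.6 and 44.8 CPM with LTβR-Ig, against 27.1, 34.5, 13.5 and 35.3 CPM in controls. Its low libraries, LTβR-Ig replicate 2 and control replicate 3, were both among the 3 highest for Hspa5. LTβR-Ig replicate 4, also among those 3, had the highest Sel1l of all libraries, at 44.8 CPM. The interval of the log2 fold change of Sel1l was -0.75 to 1.34. Syvn1 had 19.1, 35.5, 14.3 and 26.2 CPM with LTβR-Ig and 17.7, 18.8, 23.1 and 19.9 CPM in controls, with an interval of -0.38 to 0.89. When single libraries were left out, the log2 fold change of Sel1l ran from 0.07 to 0.59 and that of Syvn1 from 0.00 to 0.45. For Edem1, a lectin that marks misfolded glycoproteins, and for the channel genes Derl1 and Derl2 the log2 fold changes were 0.27, -0.09 and 0.22, with overlapping groups. Without control replicate 4 those of Edem1 and Derl2 were 0.12 and 0.13, and without control replicate 3 that of Derl1 was -0.01.

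In the PERK-ATF4 branch, Atf4 and its target Asns had unadjusted p under 0.05 in opposite directions, and neither passed the adjusted test. Atf4 had 176, 184, 185 and 171 CPM in LTβR-Ig libraries, against 143, 159, 135 and 144 CPM in control libraries. The groups did not overlap, and the SD within groups, 0.08 on the log2 scale, was smaller than for all but 2.39% of the 1885 genes at 100 CPM or more. The log2 fold change was 0.30 (SE 0.09, interval 0.10 to 0.50, edgeR adjusted p = 0.479), a 1.23-fold difference. Atf4 lies on chromosome 15 from 80255184 to 80257541 (mm10).

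Asns encodes asparagine synthetase and is a usual target of ATF4. It had 144, 96.4, 114 and 93.6 CPM with LTβR-Ig, against 170, 169, 168.5 and 106 CPM in controls. Control replicate 4 stood apart at the level of the LTβR-Ig libraries, and the other controls lay close together. The log2 fold change was -0.45 (SE 0.20, interval -0.90 to -0.01, edgeR adjusted p = 0.778) and ran from -0.60 (without control replicate 4) to -0.38 (without LTβR-Ig replicate 4) when single libraries were left out. The unadjusted p of Asns was above 0.05 without control replicate 1, 2 or 3 and without LTβR-Ig replicate 2, 3 or 4.

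Ddit3, the gene of CHOP, had 45.5, 37.5, 38.8 and 44.9 CPM with LTβR-Ig, against 36.9, 51.96, 50.4 and 30.6 CPM in controls. All LTβR-Ig values lay inside the control range, and the interval of the log2 fold change was -0.47 to 0.41. Ddit3 overlaps Mars and Gm4189 on the opposite strand. On its own strand it overlaps another annotated entry that is also named Ddit3. Reads of these overlaps cannot be told apart. Ppp1r15a encodes GADD34, which restores translation and is also an early stress gene. It had 76.4, 79.9, 146 and 98.7 CPM with LTβR-Ig and 62.8, 58.0, 142 and 81.5 CPM in controls, highest in replicate 3 of both groups, with a log2 fold change of 0.22. Leaving out LTβR-Ig replicate 3 gave -0.01, and leaving out control replicate 3 gave 0.58.

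The targets that mark strong ER or amino acid stress were nearly silent. Trib3, a pseudokinase gene induced by CHOP, had 0, 58, 27 and 0 counts in LTβR-Ig libraries, against 62, 45, 47 and 0 counts in control libraries. Chac1, a glutathione-degrading enzyme gene, had 0, 34, 47 and 0 counts with LTβR-Ig and 0, 0, 5 and 20 counts in controls. A count of 0 allows up to 3 counts, which is 0.0457 to 0.0583 CPM in these libraries, for counting error only. The interval of the log2 fold change of Trib3 was -4.82 to 3.46, so these libraries could exclude neither a large rise nor a large fall.

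Levels can be compared between genes only per length, as CPM per kb of summed exons. On that scale Calr, Pdia6, Hsp90b1, Hspa5 and Pdia3 led, with 302, 250, 238, 291 and 233 CPM per kb in LTβR-Ig libraries and 284, 255, 237, 221 and 217 CPM per kb in control libraries. Neighbours among these 5 overlapped in the control libraries. Xbp1 and Atf4 were at 87.1 and 75.8 CPM per kb with LTβR-Ig and 64.3 and 61.6 CPM per kb in controls, next to Herpud1 at 97.4 CPM per kb with LTβR-Ig and 76.6 CPM per kb in controls. The sensors were far lower, with Atf6 at 7.28, Eif2ak3 at 4.60 and Ern1 at 2.24 CPM per kb with LTβR-Ig, and at 6.11, 4.28 and 2.21 CPM per kb in controls. Hyou1, at 0.948 CPM per kb with LTβR-Ig and 1.74 CPM per kb in controls, was the lowest chaperone gene, below all 3 sensors in the group means.

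**Figure D3:**
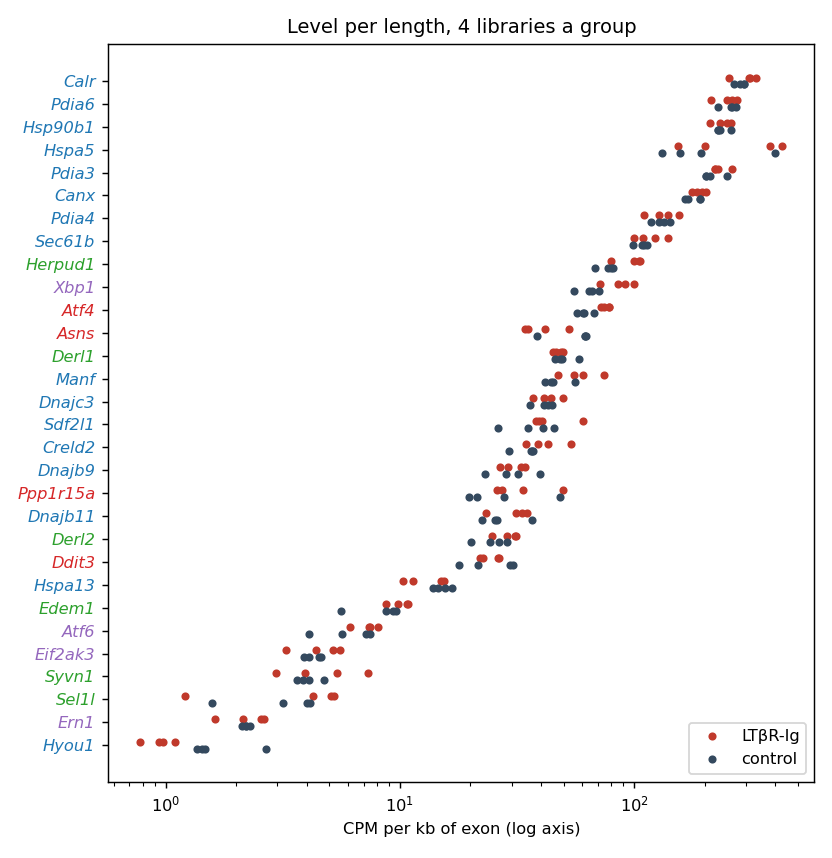
CPM per kb of exon (x axis, log scale) of the UPR and ER genes, with 4 LTβR-Ig and 4 control libraries as points and genes in the order of their control means. Name colours mark the sensor arm with Xbp1 (purple), chaperones (blue), degradation (green) and the PERK-ATF4 branch (red). Calr leads with means of 302 (LTβR-Ig) and 284 (control) CPM per kb, Hyou1 is the lowest of the 30 genes drawn with 0.948 (LTβR-Ig) and 1.74 (control), and Trib3 and Chac1, which were lower, are not drawn; Hspa5 spreads over the widest range of the abundant genes.

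Libraries of the same group also differed, and high and low libraries were not the same in each arm. As the mean deviation of log2 CPM from the library's own group, the 16 chaperone genes were high in LTβR-Ig replicate 2 (0.14) and control replicate 3 (0.15) and low in LTβR-Ig replicate 3 (-0.19). The 4 PERK-ATF4 genes with at least 1 CPM were at -0.14 in LTβR-Ig replicate 2 and 0.29 in control replicate 3. Control replicate 4 was low for the sensor arm (-0.17), the chaperones (-0.10) and the PERK-ATF4 genes (-0.23). In the sensor arm, the high mean of control replicate 3 was 0.13, and the LTβR-Ig libraries ran from -0.06 (replicate 2) to 0.07 (replicate 4).

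**Figure D4:**
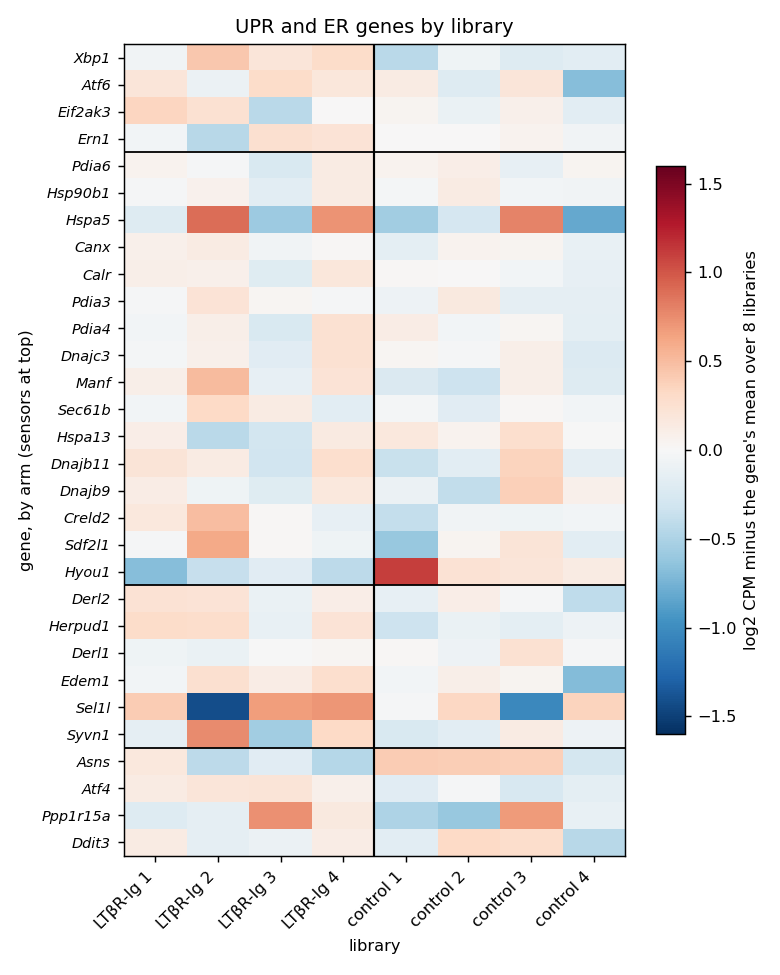
Log2 CPM of each gene minus its mean over the 8 libraries (colour) for the 4 LTβR-Ig libraries, left, and the 4 control libraries, right, with arms separated by lines. Hspa5 is high in LTβR-Ig replicates 2 and 4 and control replicate 3. Sel1l is low in LTβR-Ig replicate 2 and control replicate 3, but not in LTβR-Ig replicate 4.

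The rest of the secretory pathway was read from 6 further lists, and no gene of them passed the edgeR test over all genes. Counts for these lists use an unadjusted edgeR p under 0.05, which 6.32% of all tested genes had, 3.39% higher and 2.93% lower with LTβR-Ig. Of 22 other folding genes, 2 had an unadjusted edgeR p under 0.05, both higher with LTβR-Ig, with a median log2 fold change of 0.00. Both are collagen chaperones. Fkbp10, a prolyl isomerase, had 261 ± 14.1 CPM with LTβR-Ig and 177 ± 24.2 CPM in controls (SD, n = 4 each; log2 fold change 0.56, SE 0.11, edgeR adjusted p = 0.203, DESeq2 adjusted p = 0.00286, range over alternatives 0.00286 to 0.652), with groups that did not overlap. Serpinh1, which encodes HSP47, had 685 ± 44.6 CPM with LTβR-Ig and 539 ± 94.9 CPM in controls (log2 fold change 0.34). Txndc5, another disulfide isomerase, had 41.5, 47.4, 165 and 230 CPM with LTβR-Ig and 68.6, 46.1, 57.3 and 37.8 CPM in controls, high in LTβR-Ig replicates 3 and 4 only, and Ero1b, an ER oxidase gene, had a log2 fold change of -0.66.

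Beside the collagen chaperones stand markers of osteoblasts, which make much collagen. Of 10 such markers, 9 had a log2 fold change above 0 and 3 had an unadjusted edgeR p under 0.05, all higher, with a median of 0.44 and no marker at 0. Of all tested genes, 49.7% were above 0 and 3.39% were higher at that p. They took 1.31 to 2.12% of counts in LTβR-Ig and 1.21 to 2.59% in control libraries. The part of osteoblast-lineage cells in the values of Fkbp10 and Serpinh1 was not tested.

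In transport from the ER to the Golgi, 4 of 24 genes had an unadjusted edgeR p under 0.05, of which 3 were higher and 1 lower (median 0.08), against 3.39% and 2.93% of all genes. Kdelr1, a receptor that returns escaped chaperones to the ER, had the smallest p, with 30.2, 33.8, 32.1 and 30.4 CPM with LTβR-Ig and 23.5, 22.8, 21.3 and 20.1 CPM in controls. These groups did not overlap, and the log2 fold change was 0.53 (SE 0.14, edgeR adjusted p = 0.389, DESeq2 adjusted p = 8.18e-05, range over alternatives 8.18e-05 to 0.895). The coat gene Sec24b had -0.45, the related receptor gene Kdelr3 0.57 and the coat gene Sec13 0.23, all with overlapping groups.

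Of 28 genes of translocation into the ER and glycosylation, an unadjusted edgeR p under 0.05 was reached by 1, which was higher with LTβR-Ig (median 0.01), a share near the 3.39% of all genes. That gene was Ssr3, a translocon-associated subunit, with 702, 603, 542 and 1024 CPM with LTβR-Ig and 522, 533, 546 and 495 CPM in controls, with LTβR-Ig replicate 3 inside the control range. Its log2 fold change was 0.45, and 0.23 without LTβR-Ig replicate 4. Spcs2, a signal peptidase subunit, had 0.73, Srp72 -0.39 and Sec61a1, the channel itself, 0.16. Among 20 other degradation genes none reached an unadjusted edgeR p under 0.05 (median 0.02), with Edem3 at 0.34, Ube2j1 at -0.25, Aup1 at 0.18 and Fam8a1 at 0.33.

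Of 24 tested genes of the integrated stress response, 14 were above 0 in log2 fold change and 10 below (median 0.05; Fgf21 was not tested). Those under 0.05 in unadjusted edgeR p were 2, both higher with LTβR-Ig (3.39% of all genes were), and none passed the adjusted test. Atf5, a transcription factor gene translated like Atf4, had 16.1, 29.8, 17.0 and 16.1 CPM with LTβR-Ig and 10.2, 10.1, 10.5 and 12.2 CPM in controls (log2 fold change 0.88, SE 0.25, edgeR adjusted p = 0.460, DESeq2 adjusted p = 0.0424, range over alternatives 0.0424 to 0.915). The groups of Atf5 did not overlap, and without LTβR-Ig replicate 2 the log2 fold change was 0.61. The serine synthesis gene Phgdh had 0.49, the mitochondrial Shmt2 -0.29, and Eif2ak4, the amino acid sensor GCN2, -0.76. Of 13 other transducers 1 was higher and 1 lower at that unadjusted p (median 0.06): Atf6b, the relative of Atf6, at 0.47 and Traf2, an adaptor of IRE1 and of TNF receptors, at -0.64, beside Creb3l2 at 0.29 and Bcl2l11 at 0.25.

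Stress outside the ER was compared in the same way. Of 13 cytosolic heat shock genes, 9 were above 0 and 4 below (median 0.06), and 2 reached an unadjusted edgeR p under 0.05, both higher with LTβR-Ig (3.39% of all genes did), with Dnajb1 at 0.38, Hspb1 at 0.63 (DESeq2 adjusted p = 0.0382, range over alternatives 0.0382 to 1.00), Dnaja1 at 0.30 and Hspa8 at 0.20. Of 16 immediate early genes, which tissue digestion is known to induce, 13 were above 0 and 3 below (median 0.41), over genes that vary widely between libraries. At the same unadjusted p there were 2, both higher with LTβR-Ig, where 3.39% of all genes were. These were Nr4a1 at 1.11 and Klf2 at 1.01 (DESeq2 adjusted p = 0.0356 and 0.0424, ranges over alternatives 0.0356 to 0.915 and 0.0424 to 0.779), each with groups that did not overlap, and Klf4 and Jund had 0.80 and 0.46. Their part in the values of Atf4 and Ppp1r15a was not tested.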

How the data were processed

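The deposited values are unnormalized read counts for 52636 genes in 8 libraries. Per the submitters' processing notes, HISAT2, HTSeq and mm10 were used; the sources used here give no versions, annotation release or strand setting. PolyA RNA was read as pairs of 76 bp, per the labels' protocols.

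Groups and replicate numbers came from the sample titles. Symbols, positions and exon lengths came from GENCODE M21 (GRCm38, the same assembly), with 52489 IDs matched without their version. Of the 32 members, 15 overlap another annotated gene, and without a strand setting reads of such overlaps cannot be told apart. Within groups, the chi-square per degree of freedom between libraries was 140 to 265, so no library repeats another.

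edgeR 4.0.16 in R 4.3.3 tested all libraries with TMM scaling, filterByExpr (minimum count 10, minimum total count 15), robust glmQLFit and no covariate. SE is the size of the log2 fold change over the square root of F. CPM values are TMM-scaled, and spread on the log2 scale used an offset of 0.5 CPM. On simulated counts the fit returned the folds put in, but many of the smaller changes were not called.

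Alternatives in edgeR were size factors from DESeq2 and upper-quartile scaling; others were DESeq2 1.42.0 on all genes with its own filter, limma-voom (limma 3.58.1) with sample weights, no filter, a strict filter (at least 10 counts in 4 libraries and a mean of 5 CPM), the replicate block and each library left out. DESeq2 on the genes edgeR tested and leaving out 2 libraries together were chosen after seeing the data.

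The members, the gene lists and the motifs were chosen with earlier results of these data known, so no value adjusted over a list alone is given. All members are reported. Values per library are given for those at an unadjusted p under 0.05, those with separate groups and a fixed set, and up to 4 genes with the smallest p stand for each other list. A planned description of protein ends was not run.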

Additional observations from a re-analysis of the deposited data

Results flagged for a closer look

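A library was picked out where its gap to the nearest of the other 3 exceeded Dixon's 95% critical value. By chance about 1 group in 20 would show this. Of the 62 pairs of member and group 6 were picked out, and of 126 pairs including the genes named from other lists 10.

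Among the chaperones, control replicate 1 was high for Hyou1, at 19.5 CPM where the remaining controls had 9.89 to 10.6 CPM. The same library was low for Creld2, at 40.0 CPM where the others had 49.5 to 50.6 CPM. Control replicate 2 was high for Hsp90b1, at 1044 CPM beside 918 to 934 CPM. In LTβR-Ig replicate 2, Sdf2l1 was at 66.9 CPM against 42.1 to 44.7 CPM in the other LTβR-Ig libraries, and Pdia3 at 822 against 695 to 717 CPM. In the PERK-ATF4 branch, control replicate 4 was low for Asns, at 106 CPM beside 168.5 to 170 CPM.

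Of the other genes, LTβR-Ig replicate 2 was high for Serpinh1, at 751 CPM beside 659 to 667 CPM, and for Atf5, at 29.8 CPM beside 16.1 to 17.0 CPM. LTβR-Ig replicate 4 was high for Sec24b, at 47.4 CPM beside 31.9 to 34.1 CPM. Control replicate 3 was high for Spcs2, at 304 CPM beside 101 to 133 CPM.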

How the results depend on the processing

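Of 63 genes followed through the alternatives, 54 kept the sign of their log2 fold change. DESeq2 on all genes called 1 member (Atf4), and every other setting run called 0. The count of all called genes, 6 in the edgeR test, was 338 with DESeq2 on all genes, 199 with DESeq2 on the genes edgeR tested, 17 with limma-voom, 22 with the strict filter and 1 without LTβR-Ig replicate 2 and control replicate 3 together. With single libraries left out it ran from 2 (without control replicate 3) to 9 (without LTβR-Ig replicate 4). DESeq2 on all genes called 1 gene each in other folding, integrated stress response, ER to Golgi transport and heat shock, and 2 immediate early genes; on the genes edgeR tested it called 1 each in folding and transport. With single libraries left out, members at an unadjusted p under 0.05 numbered 3 (without control replicate 1) to 6, and the sensor median was 0.083 (without control replicate 4) to 0.26. Over all genes, deviations of same-numbered libraries hardly correlated (correlations 0.000129 to 0.0749). This cannot show whether same-numbered libraries were paired, since single genes may still share a deviation. With the replicate block 1 gene was called, 0 members were, and 4 members had an unadjusted p under 0.05. For the block and the left-out libraries, the share of all genes at that unadjusted p was not counted. Those counts of members therefore have no measure beside them. Log2 fold changes that turned sign were -0.00065 for Hsp90b1, 0.069 for Dnajb9 and 0.0049 for Ddit3 with limma-voom, -0.0059 for Ern1, 0.012 for Dnajb9 and 0.0015 for Ddit3 with the block, and -0.031 for Hsp90b1, 0.011 for Derl1, 0.16 for Dnajb9 and 0.11 for Ddit3 without both libraries. With single libraries left out the ranges were -0.014 to 0.13 for Dnajc3, -0.037 to 0.071 for Hsp90b1, -0.061 to 0.15 for Ern1, -0.12 to 0.14 for Dnajb9, -0.15 to 0.089 for Ddit3, -0.014 to 0.58 for Ppp1r15a, -0.051 to 0.12 for Pdia4 and -0.081 to 0.044 for Pdia6. The cause was not tested. Low counts limit what can be said of Trib3 and Chac1, which had no reads in several libraries.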
